A study of Mus musculus with 6 samples.

Results

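The genes described here are 40 mouse germline genes chosen by name from meiosis, the piRNA pathway and other testis- or oocyte-restricted functions, and 34 of the 40 had a probe that could be named. They fall into 16 genes of the meiotic chromosome, 13 of the piRNA pathway and 11 other germline genes, of which 14, 9 and 11 were measured. Syce1, Mei1, Piwil4, Tdrd5, Tdrd9 and Rnf17 have no named probe and are not described further. Every one of the 34 reached the detection filter and was tested, among 16153 genes tested in all.

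RNA was profiled on 6 one-colour Agilent arrays, 1 per group, from strain 129 mouse cells grown in Knockout DMEM with 20% KSR (a serum replacement). The groups are mouse embryonic stem (mES) cells from E3.5, E3.5 epiblast stem cells (EpiSCs) and E5.5 EpiSCs, each untreated or given 20 µM SB431542 daily for 4 days. mES cells model the naive pluripotent state of the blastocyst, and EpiSCs the primed state of the later epiblast. SB431542 blocks the receptor kinases of the Activin, Nodal and TGF-beta pathway. Each EpiSC group is 1 line on 1 array and the labels do not speak of separate cultures, so a p-value here speaks only of variation among these 6 samples, and that variation may be technical. In bulk RNA, fewer cells that express a gene and less RNA per cell cannot be told apart.

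Germline genes are normally silent in somatic tissue and switch on as germ cells mature and enter meiosis. In meiosis, cohesin and axial proteins organise the chromosomes, SPO11 breaks the DNA, DMC1 and the MutS homologues repair the breaks as crossovers, and the synaptonemal complex holds the paired homologues. PIWI proteins, guided by piRNAs and assembled with Tudor-domain and helicase partners, silence transposons in the germline. Around implantation many germline promoters become methylated, and a Polycomb complex that contains E2F6, MGA, MAX and PCGF6 is known to repress a set of them through E-box and E2F-type sequences.

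The labelled cell types were checked first. The summed linear level of 8 mES markers such as Zfp42 and Esrrb, relative to the array 75th percentile, was 540 and 414 in the mES arrays and 2.02 to 3.38 in the 4 EpiSC arrays. The 8 EpiSC markers summed to 64.2 and 89.3 in untreated EpiSCs, 37.1 and 32.5 in untreated and treated mES cells, and 21.9 and 25.3 in treated EpiSCs. Fgf5 followed this order, but not all of the 8 did. T was highest in untreated EpiSCs (1.48 and 1.07), but was lower in treated mES cells (-4.10) than in treated EpiSCs (-3.64 and -3.70). Dnmt3b was at 4.55 in untreated mES cells and 4.41 and 4.58 in untreated EpiSCs. Otx2 was at -0.04 in untreated mES cells and -0.18 in untreated E3.5 EpiSCs. Sfrp2 rose with SB431542, from 0.97 to 4.14 in E3.5 and from 0.72 to 4.19 in E5.5 EpiSCs. The 5 measured pluripotency genes summed to 75.6 to 87.8 in both mES arrays and the untreated EpiSCs, and to 8.86 and 8.59 in the treated EpiSCs. Sox2 did not fall with the others, at 2.11 and 2.47 in untreated and 2.77 and 2.80 in treated EpiSCs. The treated EpiSC arrays thus had lower sums of EpiSC and pluripotency markers than the untreated ones. The 8 neural markers summed to 121 and 112 on the treated EpiSC arrays, against 2.44 to 7.82 elsewhere. Hes5, Zic1 and Nes contributed most to the sums there. Sox1 rose by less than 2-fold, from -2.75 to -2.38 in E3.5 and from -2.80 to -2.04 in E5.5 EpiSCs.

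Promoter sequences are shown because the 2 short motifs named above are common in these genes. RefSeq promoter windows of 300 bases (250 before the start of transcription and 50 after, build GRCm38.p6) were found for 28 of the 34 measured genes. The E-box CACGTG, which reads the same on both strands, was present for 12 of the 28 genes (42.9%), against 10.4% of tested genes and 8.09% of all genes with a window. The E2F-type core TCCCGC, searched on both strands and so also as GCGGGA, was present for 15 of the 28 (53.6%), against 33.5% of tested genes and a smaller share of all genes (5959 of 27025). Both motifs together, which can share 1 base at most, were present for 8 of the 28 (28.6%), against 3.81% of tested genes and 2.32% of all. These 8 were Sycp1, Sycp3, Syce2, Stag3 and Hormad1 of the meiotic chromosome, Ddx4 and Mael of the piRNA pathway, and Rbmxl2. A match is a description of the letters in the window and not a binding site.

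The 250 bases before the start are printed for 5 of the genes with both motifs and, as a contrast without either, for Stra8. Each is written 5′ to 3′ on the strand of its gene, with both motifs in capitals and all other bases in lower case.
Sycp1: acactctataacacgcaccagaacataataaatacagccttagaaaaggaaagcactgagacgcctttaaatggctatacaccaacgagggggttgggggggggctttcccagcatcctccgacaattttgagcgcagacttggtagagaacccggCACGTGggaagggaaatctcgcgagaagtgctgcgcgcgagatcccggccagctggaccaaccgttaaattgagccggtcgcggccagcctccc
Sycp3: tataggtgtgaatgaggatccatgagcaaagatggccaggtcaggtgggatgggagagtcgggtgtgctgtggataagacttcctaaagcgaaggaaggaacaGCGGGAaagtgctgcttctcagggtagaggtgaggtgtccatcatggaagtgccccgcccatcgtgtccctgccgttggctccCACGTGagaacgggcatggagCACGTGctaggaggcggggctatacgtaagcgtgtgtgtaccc
Ddx4: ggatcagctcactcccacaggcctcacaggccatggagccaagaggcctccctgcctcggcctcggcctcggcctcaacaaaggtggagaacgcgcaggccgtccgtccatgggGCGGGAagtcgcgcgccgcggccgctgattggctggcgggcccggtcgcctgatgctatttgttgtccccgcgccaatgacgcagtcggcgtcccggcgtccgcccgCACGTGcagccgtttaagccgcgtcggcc
Mael: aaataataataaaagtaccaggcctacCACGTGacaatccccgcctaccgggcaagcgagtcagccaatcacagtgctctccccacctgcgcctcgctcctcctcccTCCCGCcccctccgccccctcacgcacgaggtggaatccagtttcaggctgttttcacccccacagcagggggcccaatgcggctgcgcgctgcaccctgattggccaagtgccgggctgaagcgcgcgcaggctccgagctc
Rbmxl2: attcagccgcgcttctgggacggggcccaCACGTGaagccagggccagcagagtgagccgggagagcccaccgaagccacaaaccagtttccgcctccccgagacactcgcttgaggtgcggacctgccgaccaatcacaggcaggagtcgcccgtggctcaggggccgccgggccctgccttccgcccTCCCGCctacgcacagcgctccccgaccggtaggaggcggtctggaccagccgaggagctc
Stra8: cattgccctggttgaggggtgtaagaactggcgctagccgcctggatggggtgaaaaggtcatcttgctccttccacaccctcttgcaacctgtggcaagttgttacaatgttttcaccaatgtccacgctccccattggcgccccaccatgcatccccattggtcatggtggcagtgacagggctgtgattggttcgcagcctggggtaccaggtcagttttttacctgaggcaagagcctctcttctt

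The Sycp1 stretch is chr3:102936101-102936350 (minus strand), and its E2F-type core is not wholly within the printed bases. Sycp3 is shown for chr10:88459337-88459586 (plus strand), where the E-box occurs 2 times. For Ddx4 the bases are chr13:112652311-112652560 (minus strand), with the E-box 29 bases before the start. The Mael stretch lies at chr1:166238745-166238994 (minus strand). Rbmxl2 is shown for chr7:107209195-107209444 (plus strand). The Stra8 stretch, chr6:34920698-34920947 (plus strand), holds 5 CpG dinucleotides, while that of Ddx4 holds 31.

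CpG density was high across the set but not uniform. Windows of the 28 genes held a median of 19.5 CpG dinucleotides per 300 bases, against 17.0 for tested genes, and 22 of the 28 (78.6%) had at least 15, against 56.7%. Stra8, the retinoic acid-induced gene that starts meiosis, had 10 CpGs in its window, and Fmr1nb, a cancer-testis antigen, had 9. Neither holds one of the motifs. Dazl, an RNA-binding translation regulator of germ cells, had 28 CpGs and also neither motif.

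**Figure D1:**
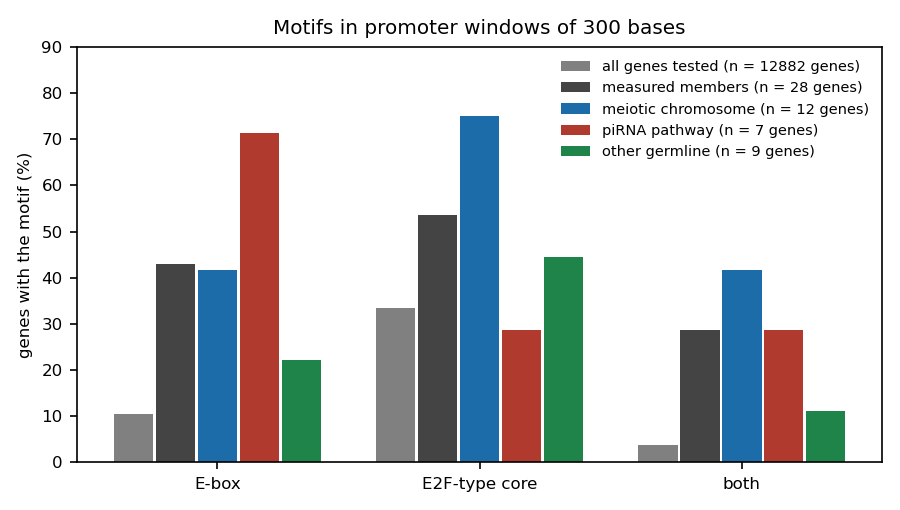
Percentage of genes (vertical axis) with the E-box, the E2F-type core or both in a promoter window of 300 bases, for all tested genes (grey), the measured germline genes (black) and their 3 role groups (colours). The bars for the germline genes stand at 42.9%, 53.6% and 28.6%, and those for all tested genes at 10.4%, 33.5% and 3.81%. Bars of the role groups rest on 7 to 12 genes each.

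The motifs did not divide along the roles in the same way. The E-box was found for 5 of 7 piRNA genes with a window (71.4%), 5 of 12 meiotic chromosome genes (41.7%) and 2 of 9 other germline genes (22.2%). The E2F-type core was found for 9 of 12 meiotic chromosome genes, 4 of 9 other germline genes (44.4%) and 2 of 7 piRNA genes (28.6%). These counts are small and were not tested.

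In mES cells nearly the whole set was detected, and in EpiSCs much of it was not. Untreated mES cells had 34 of the 34 genes well above background and treated mES cells 33. E3.5 EpiSCs had 21 with and 21 without SB431542, and E5.5 EpiSCs 18 untreated and 20 treated. Over all named genes the share above background was 89.4% to 92.6% on every array. A group of 8 genes, Sycp1, Sycp3, Tex11, Taf7l, Tex14, Morc1, Rbmxl2 and Fmr1nb, was above background on both mES arrays and on no EpiSC array, which is 23.5% of the 34, against 0.74% of all named genes (126 of 17016). At the other end 17 of the 34 were above background on all 6 arrays, against 85.1% of all named genes.

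**Figure D2:**
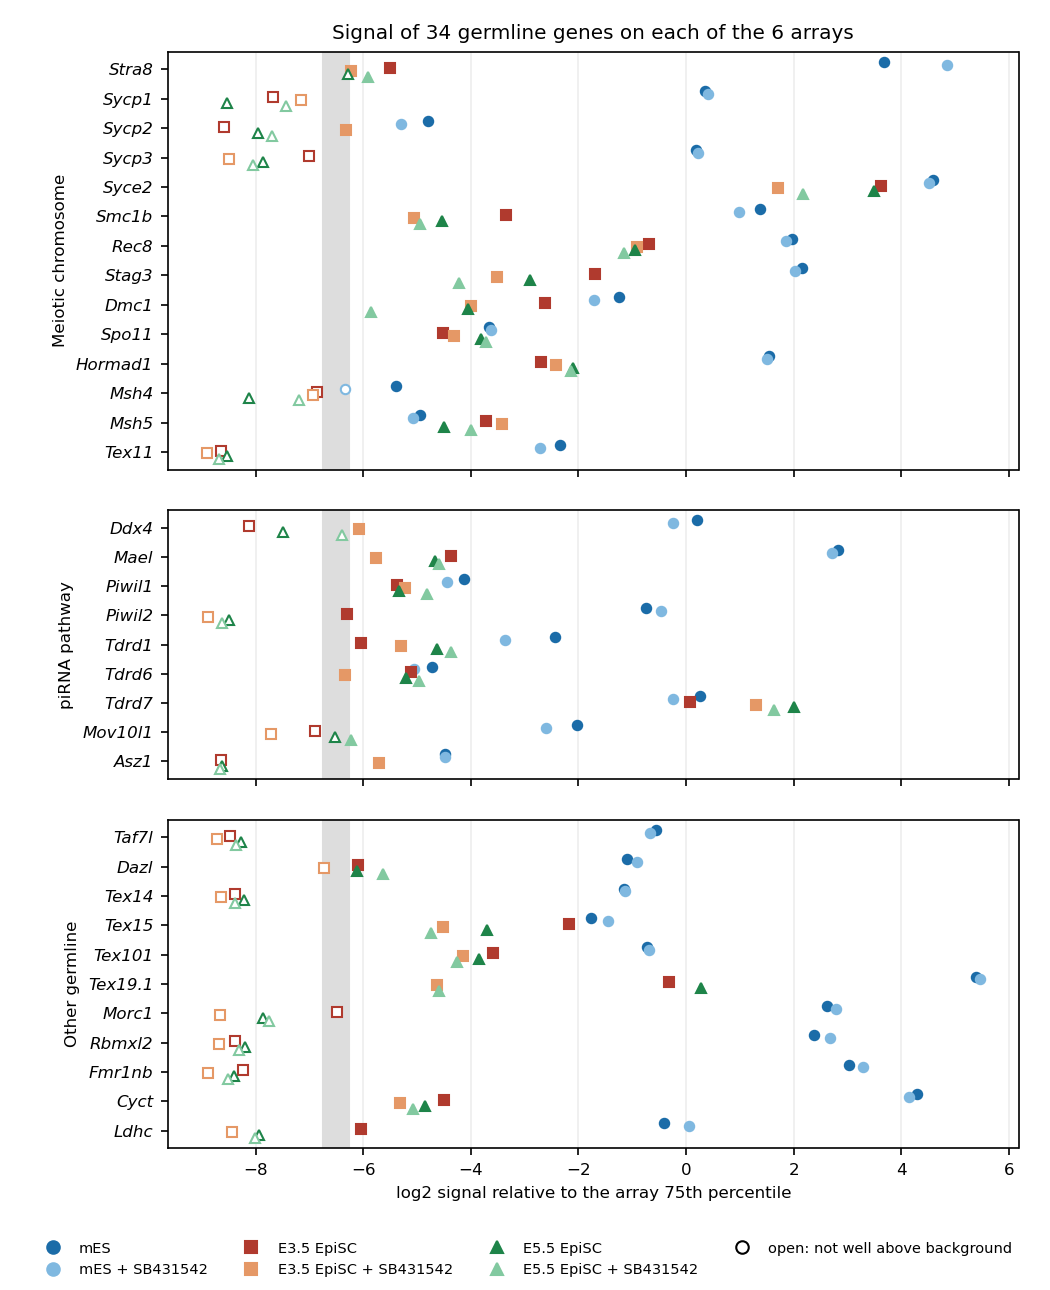
Signal of each of the 34 genes (rows, grouped by role) on the 6 arrays, on a log2 scale relative to each array's 75th percentile (horizontal axis). Circles are mES cells, squares E3.5 EpiSCs and triangles E5.5 EpiSCs, with pale symbols for SB431542, open symbols for signals not well above background and a grey band over the lowest level called above background on the 6 arrays. The paired circles lie close together and to the right of the other symbols in most rows, and levels are to be compared within a row only.

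The untreated EpiSC lines were compared with untreated mES cells to ask how much of the germline set differs between the pluripotent states. By limma with Benjamini-Hochberg adjustment over all tested genes, 19 of the 34 fell in EpiSCs (7 meiotic, 2 piRNA and 10 other germline genes) and 0 rose. At an unadjusted p under 0.05 the limma counts were 28 lower and 0 higher, with 2642 of 16153 genes at that level in either direction. Of all tested genes 1.11% were called lower and 0.390% higher in this comparison. The fitted difference was negative for 32 of the 34, with a median of -4.85 on the log2 scale, or -4.42 with undetected genes set at their bound, against -0.06 for all genes. Of the 19, 8 passed the detection filter through the mES arrays alone and so could only fall, and with signal required on all 6 arrays 8 of 17 were called lower. The set was proposed with results of this comparison known, so the counts describe the set and are not independent support. The test takes its spread from the pairs of EpiSC lines, and assumes that the single mES array varies likewise. For the 8 genes detected on the mES arrays alone, that spread is between background signals. Their standard errors and p-values therefore do not measure variation in expression. Leaving out the treated array of either EpiSC line brought the count to 0, while leaving out the untreated E3.5 or E5.5 array gave 19 or 18, in which Rec8 and Tex101 no longer passed. Without either treated EpiSC array limma called 0 of all tested genes as well, and the fitted values for untreated cells did not depend on those arrays (Stra8 was again at -9.57, with limma adjusted p = 0.081).

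The sizes of the falls depend on how background is treated. Under normexp background correction the median over all genes moved from -0.06 to 0.13, and 5 of the 19 (Tex11, Taf7l, Dazl, Tex14 and Tex101) did not pass. Genes at or near background in EpiSCs had smaller falls under it, at -4.18 for Sycp1, -3.89 for Sycp3, -3.88 for Ddx4, -1.82 for Tex11, -3.08 for Taf7l and -2.45 for Tex14 on the log2 scale. The values for Fmr1nb, Rbmxl2 and Morc1 were -6.75, -5.93 and -6.18. Stra8 (-7.14), Mael (-5.90), Smc1b (-3.93), Dazl (-2.67), Tex101 (-2.08), Ldhc (-3.40) and Cyct (-7.46) also moved toward 0, each by over 1.5-fold. Of these genes Ldhc, Stra8 and Dazl moved furthest, from -6.58, -9.57 and -5.01. Rec8 (-2.73), Hormad1 (-3.37) and Tex19.1 (-5.24) stayed closer to the values given below. The "at least" folds below hold for the processed signal only and are not floors under normexp.

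The untreated E3.5 EpiSC array was on slide 2 and the treated one on slide 3, whereas the E5.5 EpiSC arrays shared slide 1 with the mES arrays. Within slide 1, 30 of the 34 were at least 2-fold lower in E5.5 EpiSCs than in mES cells and 1 (Tdrd7) was higher, against 10.7% and 11.9% of all genes above background on the brighter array. For E3.5 EpiSCs, 28 were lower and 1 (Msh5) higher, against 12.6% and 10.9%.

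**Figure D3:**
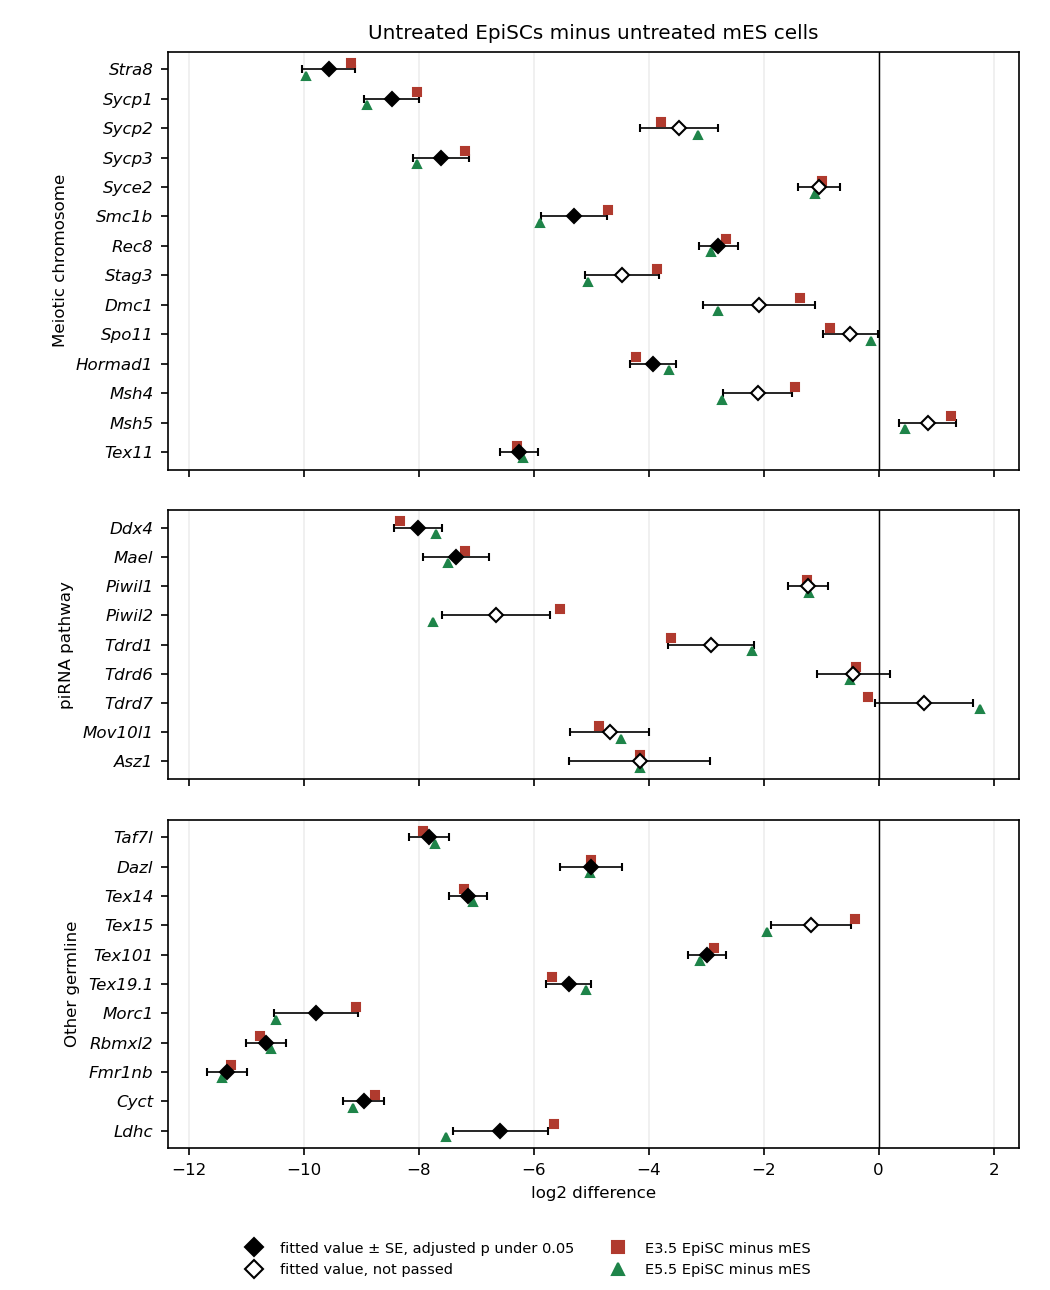
Difference between untreated EpiSCs and untreated mES cells on the log2 scale (horizontal axis) for each of the 34 genes. Diamonds are fitted values with their standard error (filled where the adjusted p is under 0.05), squares the E3.5 line and triangles the E5.5 line. The fitted value lies left of 0 in 32 rows. The symbols of both lines lie close to it for Fmr1nb, Rbmxl2, Tex14 and Tex11, whose EpiSC signals were all at background.

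Genes of meiotic entry and of the synaptonemal complex were among those that fell. Stra8 was at 3.68 in mES cells and 4.85 in treated mES cells, at -5.50 and -6.23 in E3.5 EpiSCs (untreated, then treated), and at -6.28 and -5.92 in E5.5 EpiSCs, on the log2 scale relative to the array. No EpiSC level came near the mES levels, and the untreated E5.5 signal was not well above background. The fitted fall of Stra8 was -9.57 ± 0.46 (SE; 2 EpiSC arrays against 1 mES array; limma adjusted p = 0.0122). Sycp1, which spans the synaptonemal complex, stood at 0.36 and 0.41 in mES cells and between -8.54 and -7.15 on the EpiSC arrays, all at background. Its level was at least 110-fold lower in untreated EpiSCs (limma adjusted p = 0.0133). Sycp3, a lateral element protein, had 0.18 and 0.23 in mES cells against -8.49 to -7.01 in EpiSCs, at least 96.7-fold lower when untreated (limma adjusted p = 0.0157). Both genes were above background on the mES arrays alone.

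Other synaptonemal complex genes were less divided. Sycp2, the lateral partner of Sycp3, was dim in mES cells (-4.80 and -5.30) and above background in EpiSCs on the treated E3.5 array alone (-6.32). Untreated, Sycp2 was at background in both EpiSC lines and at least 3.08-fold lower, which did not pass (limma adjusted p = 0.102). Its mean over untreated and treated cells passed (-2.59 ± 0.48, limma adjusted p = 0.0324), with 1 of 4 EpiSC signals above background. Under normexp Sycp2 was at -0.15 untreated and -0.37 for the mean, and neither passed (limma adjusted p = 0.922 and 0.594). Syce2, of the central element, was above background on every array, at 4.59 and 4.51 in mES cells, 3.62 and 1.70 in E3.5 EpiSCs and 3.49 and 2.17 in E5.5 EpiSCs. The untreated gap of Syce2 was only -1.04 ± 0.37 (limma adjusted p = 0.272), and with SB431542 it was -2.58 ± 0.37 (limma adjusted p = 0.0227).

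The 3 meiotic cohesin subunits in the set kept a signal above background in every EpiSC array while lying below mES cells. Smc1b was at 1.37 and 0.99 in mES cells, -3.35 and -5.05 in E3.5 EpiSCs and -4.53 and -4.95 in E5.5 EpiSCs, and its untreated fall was 39.5-fold (-5.30 ± 0.57, limma adjusted p = 0.0356). Rec8, a kleisin of meiotic cohesin, was at 1.97 and 1.86 against -0.69 to -1.16, a fall of 6.89-fold (-2.79 ± 0.34, limma adjusted p = 0.0462). A second Rec8 probe gave a smaller difference of -0.97, and Rec8 did not pass with the mean over its probes. Stag3 was at 2.16 and 2.03 in mES cells, -1.70 and -3.51 in E3.5 and -2.90 and -4.22 in E5.5 EpiSCs. The untreated difference of Stag3 narrowly missed the threshold (-4.46 ± 0.64, limma adjusted p = 0.0581), and it passed with the EpiSC line as a block, as did Piwil2, Tdrd1 and Mov10l1.

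Recombination genes of the meiotic group were mixed as well. Hormad1, which marks unsynapsed axes, fell from 1.54 and 1.51 to between -2.69 and -2.10 (-3.93 ± 0.40 untreated, limma adjusted p = 0.0329). Its other probe gave a larger untreated difference of -8.2 and was at background on all EpiSC arrays. Tex11, an X-linked crossover gene, was at -2.34 and -2.71 in mES cells and at background in all EpiSC arrays, at least 16.9-fold lower untreated (limma adjusted p = 0.0133). Dmc1, the meiotic recombinase, ranged from -1.25 in mES cells to -2.62 in E3.5 and -4.05 in E5.5 EpiSCs, and the lines differed enough that the fall of -2.08 ± 0.98 did not pass (limma adjusted p = 0.411). Spo11, which makes the double-strand breaks, lay within -4.51 to -3.63 on all 6 arrays, with a difference of -0.49 ± 0.48 (limma adjusted p = 0.725). Msh4 was dim throughout, above background on the untreated mES array alone (-5.40). Its partner Msh5 had a higher signal in EpiSCs than in mES cells by one probe (0.85 ± 0.50, limma adjusted p = 0.518) and a lower one by another (-1.74), so its direction depends on the probe.

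In the piRNA pathway, the helicase Ddx4 and the piRNA factor Mael carried the calls. Ddx4 (Vasa) was at 0.21 and -0.25 in mES cells, -8.12 and -6.08 in E3.5 EpiSCs and -7.49 and -6.40 in E5.5 EpiSCs. It was above background in EpiSCs on the treated E3.5 array alone, and was at least 99.0-fold lower in untreated EpiSCs (limma adjusted p = 0.0133). Mael was at 2.83 and 2.71 in mES cells, -4.37 and -5.77 in E3.5 and -4.67 and -4.60 in E5.5 EpiSCs. Its fall of 164-fold was measured on both sides of the comparison (-7.35 ± 0.57, limma adjusted p = 0.0201).

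The PIWI proteins differed from each other. Piwil2 (MILI) had -0.74 and -0.47 in mES cells and was above background in EpiSCs on the untreated E3.5 array alone, at -6.30. The untreated difference of Piwil2 was -6.66 ± 0.94 and missed the threshold (limma adjusted p = 0.0572), while that in treated cells was at least 73.9-fold (limma adjusted p = 0.0144). Piwil1 (MIWI) was dim but above background everywhere, at -4.13 and -4.45 in mES cells and -5.37 to -4.82 in EpiSCs, a difference of -1.23 ± 0.35 that did not pass (limma adjusted p = 0.196).

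Of the remaining piRNA genes, none passed in untreated cells. Mov10l1, the helicase that binds piRNA precursors, was at -2.03 and -2.61 in mES cells and -7.72 to -6.23 in EpiSCs. Both untreated EpiSC signals of Mov10l1 were at background, and its untreated level was at least 21.0-fold lower but missed the threshold (limma adjusted p = 0.0606). With SB431542, where 1 of 2 EpiSC arrays was above background, the difference passed (-4.37 ± 0.69, limma adjusted p = 0.0284). Under normexp the values of Mov10l1 were -1.95 untreated and -2.25 treated, and neither passed (limma adjusted p = 0.18 and 0.056). Tdrd1 (-2.91 ± 0.75) and Tdrd6 (-0.44 ± 0.63), both Tudor proteins that bind PIWI proteins, did not pass (limma adjusted p = 0.162 and 0.829). Asz1, a scaffold on the mitochondrial surface, was at -4.48 on both mES arrays and above background in EpiSCs on the treated E3.5 array alone (-5.70). Tdrd7, which also has roles outside the germline, ran the other way, from 0.25 and -0.25 in mES cells to 2.01 in untreated E5.5 EpiSCs, though 0.07 in untreated E3.5 EpiSCs lay within the mES values. The difference of Tdrd7 was 0.79 ± 0.85 (limma adjusted p = 0.755).

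Among the other germline genes, 10 of 11 fell. Fmr1nb, on the X chromosome, was at 3.03 and 3.29 in mES cells and -8.89 to -8.23 in EpiSCs, at least 698-fold lower untreated (limma adjusted p = 0.012). Rbmxl2, a testis RNA-binding retrogene, was at 2.38 and 2.68 against -8.68 to -8.19, at least 445-fold lower (limma adjusted p = 0.012). Morc1, which represses transposons in male germ cells, was at 2.62 and 2.78 against -8.66 to -6.48, at least 518-fold lower (limma adjusted p = 0.0192). All EpiSC signals of these 3 genes were at background. Taf7l, an X-linked TFIID subunit gene, and Tex14, of the germ cell bridges, followed the same pattern from untreated mES levels of -0.56 and -1.16. They were at least 58.2-fold and 38.3-fold lower, both with limma adjusted p = 0.0122.

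Testis metabolic genes fell as well. Cyct, the testis cytochrome c, was at 4.29 and 4.15 in mES cells and -5.32 to -4.49 in EpiSCs, with every array above background and a fall of 499-fold (-8.96 ± 0.36, limma adjusted p = 0.0122). Ldhc, the testis lactate dehydrogenase, was at -0.41 and 0.05 in mES cells, and in EpiSCs above background on the untreated E3.5 array alone (-6.05). The fitted fall of Ldhc was -6.58 ± 0.83 (limma adjusted p = 0.0473), and with all probes tested, named or not, neither Ldhc nor Rec8 passed.

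By the probes used, smaller gaps were seen for Dazl, Tex101 and Tex15. Dazl was at -1.10 and -0.92 in mES cells and -6.73 to -5.63 in EpiSCs (-5.01 ± 0.54 untreated, limma adjusted p = 0.036). A second Dazl probe gave a larger untreated difference of -8.48, but was above background on the mES arrays alone. Tex101, a germ cell surface protein, was at -0.73 and -0.69 against -4.26 to -3.59 (-2.98 ± 0.33, limma adjusted p = 0.0377). Tex15, needed for meiotic repair and piRNA-directed silencing, was the gene of this group that did not pass, with -1.76 in mES cells, -2.17 in E3.5 and -3.70 in E5.5 EpiSCs (-1.18 ± 0.70, limma adjusted p = 0.521).

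The same contrast in SB431542-treated cells gave 23 of 34 lower and 0 higher by limma (25 and 1, Msh5, at an unadjusted p under 0.05, as were 4643 of all tested genes), against 5.32% lower and 5.35% higher of all tested genes. The 19 called in untreated cells were all among the 23, joined by Syce2, Stag3, Piwil2 and Mov10l1. The median difference was -5.57, against -0.34 over all genes. With undetected genes at their bound it was -4.81. Without the treated E3.5 array the count was 0, as it was over all tested genes. Averaging untreated and treated differences, which uses all 6 arrays, gave 24 lower and 0 higher (30 and 1, Msh5, at an unadjusted limma p under 0.05, as were 5201 of all tested genes), against 7.63% and 7.40%, with a median of -5.15 (-4.83 at the bounds) against -0.20, and 25 to 29 calls when any 1 EpiSC array was left out. The 10 genes that did not pass in any of these comparisons were Dmc1, Spo11, Msh4, Msh5, Piwil1, Tdrd1, Tdrd6, Tdrd7, Asz1 and Tex15. With the EpiSC line as a block the averaged comparison called 30, of which 29 were lower and 1, Msh5, was higher. The calls made without the untreated E3.5 array were not all lower either, since they took in Tdrd7 as higher.

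Both called and uncalled genes held the motifs. Of genes with a promoter window, the E-box was present in 7 of 17 called lower in untreated EpiSCs (41.2%) and 5 of 11 not called (45.5%). The E2F-type core was present in 11 of 17 (64.7%) and 4 of 11 (36.4%), and the median CpG count was 19.0 and 20.0. Both motifs together were present in 6 of 17 (35.3%) and 2 of 11 (18.2%). The latter 2, Stag3 and Syce2, were called lower in the averaged comparison. Stra8 and Fmr1nb, without either motif, both fell. These counts were not tested.

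Few of the genes differed with SB431542 in mES cells. Differences between the paired mES arrays ran from -0.95 to 1.17 on the log2 scale, and 33 of 34 genes stayed within 2-fold. Stra8 was the exception, higher by 1.17, which with 1 array on each side has no replicate check. Among all genes above background on the brighter array, 1.44% were at least 2-fold higher and 1.16% lower.

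In EpiSCs, treated cells had far less Tex19.1, a gene of pluripotent and germ cells that acts in transposon control. Tex19.1 was at 5.38 and 5.46 in mES cells, -0.32 and -4.63 in E3.5 EpiSCs and 0.28 and -4.59 in E5.5 EpiSCs, above background on all 6 arrays. The arrays fall into 3 separate levels, with mES cells highest, untreated EpiSCs between and treated EpiSCs lowest. The fall from mES cells to untreated EpiSCs was 42.1-fold (-5.39 ± 0.39, limma adjusted p = 0.0192), and that from untreated to treated EpiSCs was 24.2-fold (-4.59 ± 0.32, 2 arrays against 2, limma adjusted p = 0.0227). In treated mES cells Tex19.1 differed by 0.08. The difference between these responses was -4.68 ± 0.55 and did not pass (limma adjusted p = 0.286). No tested gene passed for that interaction (1109 had an unadjusted p under 0.05).

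Tex19.1 was the 1 gene of 34 called for SB431542 in EpiSCs, against 1.20% called lower and 0.891% higher of all tested genes. Without the treated E3.5 or E5.5 array limma called 0 of all tested genes, and Tex19.1 was at -4.57 and -4.62 (limma adjusted p = 0.141 and 0.0696). Median shift over the set was -0.22, against -0.19 for all genes. Tex19.1 fell on the arrays on which the pluripotency genes other than Sox2 fell and the sum of neural markers rose (above). The part of a change of cell type in the level of Tex19.1 was not tested.

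Only Tex19.1, Syce2, Stag3, Dmc1 and Tex15 were at least 2-fold lower with SB431542 in both EpiSC lines. Syce2 fell short of the threshold with -1.62 ± 0.30 (limma adjusted p = 0.0821). Stag3 gave -1.56 ± 0.52, Dmc1 -1.59 ± 0.80 and Tex15 -1.69 ± 0.57, with limma adjusted p of 0.21, 0.339 and 0.214. Each of these 4 was above background on every EpiSC array.

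**Figure D4:**
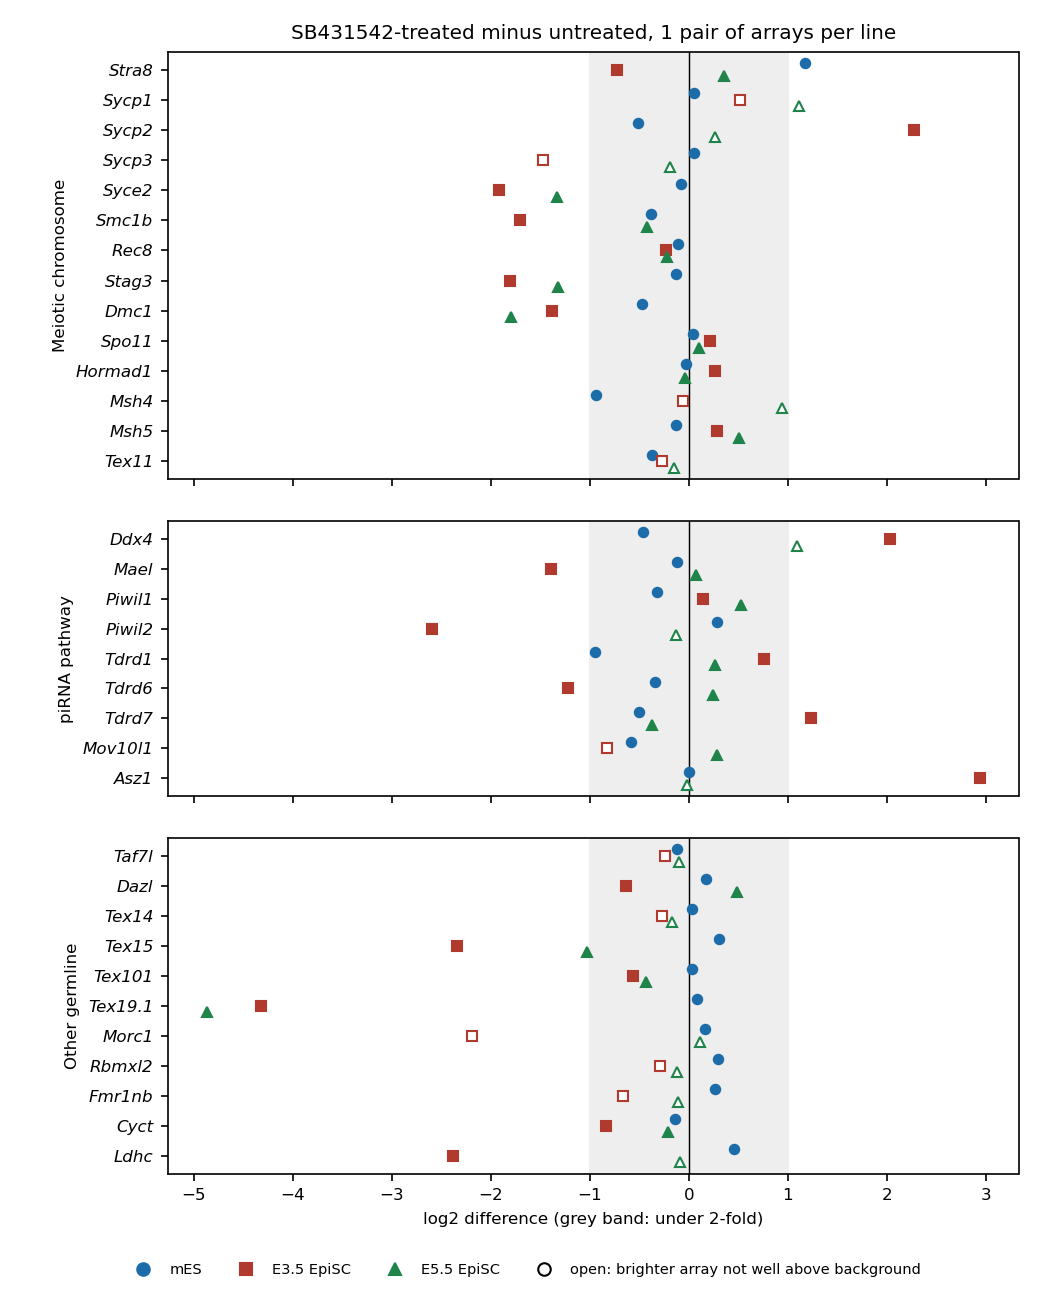
Difference between SB431542-treated and untreated cells on the log2 scale (horizontal axis) for each of the 34 genes, with circles for mES cells, squares for E3.5 EpiSCs and triangles for E5.5 EpiSCs. Open symbols mark pairs whose brighter array was not well above background, and the grey band spans differences under 2-fold. The circles lie within the band except for Stra8, and Tex19.1 lies at -4.32 and -4.87 in the EpiSC lines.

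More genes passed 2-fold in the E3.5 line than in the E5.5 line, as was also so over all genes. The untreated and treated E3.5 arrays were on slides 2 and 3, so SB431542 and slide cannot be told apart in that line. Both E5.5 arrays were on slide 1. In E3.5 EpiSCs, 24 genes were above background on the brighter array, 10 were at least 2-fold lower with SB431542 and 4 were higher, against 20.2% lower and 11.7% higher of all genes. In E5.5 EpiSCs, 5 of 20 were lower and 0 higher, against 9.04% and 6.69%. Of the 14 in the E3.5 line, 5 (Sycp2, Ddx4, Piwil2, Asz1 and Ldhc) had a dimmer array at background, and their bounds were only 1.15-fold to 1.77-fold. The signals of Sycp2, Ddx4 and Asz1 on the treated E3.5 array therefore sit close to the lowest level called above background. Across the 3 lines together no gene of the 34, and no tested gene, passed by limma for SB431542, with 4 and 1397 at an unadjusted p under 0.05.

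The E3.5 and E5.5 EpiSC lines could be compared for part of the set. Without SB431542, 21 of the 34 genes were above background on the brighter array, and 13 of these were within 2-fold. Another 6 were lower in the E5.5 line, against 3.88% of all genes. These were Smc1b (-1.18), Stag3 (-1.19), Dmc1 (-1.43), Tex15 (-1.54), Piwil2 and Ldhc, the last pair with bounds of 1.01-fold and 1.20-fold. Tdrd1 (1.42) and Tdrd7 (1.94) were higher in the E5.5 line, against 6.14% of all genes. With treatment the 23 genes above background split into 4 higher and 3 lower, against 10.9% and 6.11%. With treatment as a term, limma called 0 of the 34 and 0 of all tested genes (2 and 1265 at an unadjusted p under 0.05), and the line and the slide cannot be told apart here.

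Markers of other cells moved with some of these groups. All 10 fibroblast markers, such as Col1a1 and Lum, were above background on every array and summed to 15.1 in mES cells, 26.1 in treated mES cells, 14.3 and 41.6 in E3.5 EpiSCs and 69.3 and 34.3 in E5.5 EpiSCs (untreated, then treated). Against untreated mES cells, 28 of the 34 germline genes were at least 2-fold lower in untreated E3.5 EpiSCs and 30 in untreated E5.5 EpiSCs. The 7 measured primordial germ cell markers summed to 29.0 and 33.8 in mES cells, 8.62 and 6.62 in untreated and 2.13 and 2.08 in treated EpiSCs. Between 5 and 7 of them were above background on each array. Of these, Dppa3 was at 3.07 and 3.79 in mES cells and above background in EpiSCs on the untreated E3.5 array alone (-4.88), and Nanos3 had -2.09 in mES cells and -3.58 and -2.49 in the untreated EpiSC lines. Not all of the markers followed the sums. Dnd1 was at 0.34 in untreated mES cells and 1.10 in untreated E3.5 EpiSCs, though -1.43 in untreated E5.5 EpiSCs. Kit rose with SB431542, from -2.29 to -1.02 in E3.5 and from -1.96 to -0.91 in E5.5 EpiSCs. The part of such cells in the germline gene levels was not tested.

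Germline genes outside the set were examined beside it. Of 94 further germline genes, 67 were measured and 65 tested, and 8 fell and 0 rose by limma in untreated EpiSCs (21 and 2 at an unadjusted p under 0.05), with a median difference of -0.76. Over all genes 1.11% fell, 2642 had an unadjusted p under 0.05 and the median was -0.06. Counts by group were 1 of 18 further meiotic genes, 2 of 12 further piRNA genes and 5 of 35 further germ cell genes. Fkbp6, a cochaperone of the piRNA and synapsis machinery, fell from 2.41 to -5.90 and -4.89 in the untreated lines (-7.80 ± 0.54, limma adjusted p = 0.0192). Dnmt3l, the DNA methyltransferase cofactor, (-6.99 ± 0.49) and Gpat2, a piRNA factor (-4.91 ± 0.35), also fell, both with limma adjusted p = 0.0192. Dppa3 (-9.13 ± 1.04), the X-linked Usp26 (-5.91 ± 0.42) and the egg coat gene Zp3 (-3.48 ± 0.32) fell too, with limma adjusted p of 0.0398, 0.0192 and 0.0276. Mageb4 (at least 13.0-fold) and Tktl2 (at least 8.51-fold) were at background in EpiSCs, with limma adjusted p of 0.014 and 0.0493. The 8 became 0 without either treated EpiSC array, and 15 with the line as a block. With SB431542 in EpiSCs, Boll, a relative of Dazl, was at least 4.35-fold lower (limma adjusted p = 0.0253). Cpeb1, a regulator of cytoplasmic polyadenylation, fell as well (-2.79 ± 0.36, limma adjusted p = 0.0449).

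Genes for known repressors of germline promoters were also measured. Of 20 tested, 0 passed in limma for untreated EpiSCs against mES cells, against 1.11% lower and 0.390% higher of all genes, and 2 were higher and 2 lower at an unadjusted p under 0.05. E2f6 had 2.56 in mES cells and 3.99 and 3.71 in the untreated EpiSC lines (1.29 ± 0.34, limma adjusted p = 0.165). Mga (-1.03 ± 0.32) and Pcgf6 (-1.25 ± 0.32) had lower values in EpiSCs (limma adjusted p = 0.222 and 0.163). Averaged over untreated and treated cells, 2 of the 20 were called higher, E2f6 (1.45 ± 0.24, limma adjusted p = 0.0241) and Ring1 (2.24 ± 0.38, limma adjusted p = 0.0255), and 5 were called lower, Mga, Pcgf6 and Dnmt3b among them, against 7.40% and 7.63% of all genes. Dnmt3b, the de novo DNA methyltransferase of the epiblast, was at 4.55 in untreated mES cells and 4.41 and 4.58 in the untreated EpiSC lines (-0.06 ± 0.36, limma adjusted p = 0.967). It fell with SB431542 in EpiSCs to 0.08 and 0.54 (-4.18 ± 0.30, limma adjusted p = 0.0233).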

How the data were processed

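The 6 groups of 1 array each follow the titles of the samples. Scanner files, as deposited, give a background-subtracted spot intensity per probe, which the file headers credit to version 10.7.1.1 of Feature Extraction (9.1 in the submitters' processing notes). The deposited value table of the series held the same intensity at 45018 of 45018 spots of each array. From these, control and outlier spots were dropped, repeat spots averaged (median coefficient of variation 5.4% to 7.8%), and log2 taken relative to each array's 75th percentile (1190.4 to 1800.7 in intensity). Between 82.6% and 85.7% of 43379 gene spots per array were well above background and 0 were saturated. A gene counts as above background where at least 0.5 of its probe's spots carry that mark.

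The scanner files carry no gene symbols. Probes were named through their transcript accession in the RefSeq gene table of GRCm38.p6 (24375 of 41174 probes, 17016 genes), with the probe of highest mean signal per gene. The 9 germline genes with several probes included 2, Spo11 and Msh5, whose probes disagreed in sign. The file headers name an older build, so probe coordinates are not given. Promoter windows came from RefSeq, build GRCm38.p6.

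limma 3.58.1 in R 4.3.3 (lmFit, eBayes) was fitted over all genes above background on at least 1 array, with Benjamini-Hochberg adjustment at 0.05. The fit had 4 arms (mES, mES + SB431542, EpiSC, EpiSC + SB431542), both EpiSC lines as replicates, and 2 residual degrees of freedom. A model of line plus treatment served the comparisons across lines and between EpiSC lines. Single pairs of arrays were described by a 2-fold rule without a test. Where no array of the dimmer group was above background, a bound is given: the brighter mean against, per dimmer array, its measured signal or, if higher, the lowest signal called above background there. Levels of different probes are not compared, except that the marker sums add them within an array. The scripts were tested on simulated data. The lines pair treated with untreated arrays. The line as a block, normexp on the median signals (offset 50), other normalizations, filters and probe rules, and leaving out arrays were tried as alternatives; testing all probes was added after seeing the data.

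The members and all gene lists were chosen with earlier results of these data known. All 40 members are named, and of the other lists only genes called in untreated EpiSCs against mES cells or for SB431542 in EpiSCs (at most 6 per list), and Dnmt3b, Dnmt3l, E2f6, Mga and Pcgf6. Ring1 was named after its value was seen. Genes of the cell type marker lists, such as Nanos3 and Sox2, are named outside this rule, some of them after their values were seen.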

Additional observations from a re-analysis of the deposited data

How the results depend on the processing

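Each group holds 1 array and the labels carry no replicate numbers; arrays pair by line. Leaving out 1 EpiSC array in turn gave 0 to 19 calls in untreated cells, 0 to 24 in treated cells, 25 to 29 for their mean, 0 to 1 for SB431542 in EpiSCs and 0 to 7 in the wider germline list; mES arrays could not be left out. With the EpiSC line as a replicate block the counts were 23, 25, 30, 1 and 15. Requiring signal above background on all 6 arrays keeps 17 of the 34 germline genes and gave 8, 10 and 11 calls in the untreated, treated and averaged comparisons, 5 in the wider list, 0 genes past 2-fold for SB431542 in mES cells and 9 in E3.5 EpiSCs. Normexp background correction gave 15 calls in untreated cells (14 of the 19, without Tex11, Taf7l, Dazl, Tex14 and Tex101, and with Stag3), 2 for SB431542 in EpiSCs (Syce2 added) and 7 genes past 2-fold in E3.5 EpiSCs. Quantile normalization, centring on the array median, the series value table and no filter on dim probes kept the same 19 calls. Signs turned for 5 uncalled genes in the untreated comparison: Msh4 (0.40) and Tdrd6 (0.25) under normexp, Spo11 (0.01) and Msh5 (-0.45) with the mean over probes, and Tdrd7, which ranged from -0.18 (without untreated E5.5 EpiSC) to 1.76 with 1 array left out; the cause was not tested. For SB431542 in EpiSCs, 19 of the 29 genes not given with a fitted value changed sign under at least 1 alternative. With 2 residual degrees of freedom, calls need large differences, and the sizes of falls to EpiSC signals near background depend on the background correction.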
